A study of Mus musculus with 18 samples.

Results

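Excitatory neurons of the cerebral cortex were followed through 9 genes, Slc17a7, Cux1, Cux2, Rorb, Fezf2, Bcl11b, Tbr1, Foxp2 and Htr2a, matched by gene symbol. All 9 were among the 18922 genes of the expression table, and all 9 passed the filter on low counts that left 15329 genes for testing. The tissue came from the infarct core, the peri-infarct zone and the contralateral side of Trem2 knockout (KO) and wild-type (WT) mice, with 3 libraries in each of the 6 groups of genotype and region. All mice were males of 8 to 10 weeks on a C57Bl6 background, and all had a photothrombotic stroke, in which Rose Bengal (50 mg/kg, given intraperitoneally) is activated by a laser (525 nm, 125 mW) over a cortical circle of 3 mm in diameter so that clots close the vessels there. Tissue was taken 7 days after injury, and the regions were separated on brains stained with TTC, a dye that living tissue turns red and infarcted tissue leaves pale. The contralateral tissue is therefore the uninjured side of an injured brain and not tissue of an uninjured animal. The way in which Trem2, a lipid-sensing receptor of microglia, was inactivated is not stated in the labels. They also do not say whether the replicates of a group are separate animals, so p-values measure the spread between these libraries.

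Excitatory cortical neurons release glutamate, which the transporter VGLUT1, encoded by Slc17a7, loads into synaptic vesicles. Their layers are told apart by transcription factors. The homeobox factors Cux1 and Cux2 mark the upper layers, and the orphan nuclear receptor Rorb marks the granular input layer. The zinc finger factors Fezf2 and Bcl11b (also called Ctip2) mark deep-layer neurons that project below the cortex, and the T-box factor Tbr1 and the forkhead factor Foxp2 mark the deepest layer. Htr2a encodes the serotonin 2A receptor, which in the cortex is strongest on deep-layer pyramidal neurons. Several of these genes are also used outside these neurons: Bcl11b in striatal projection neurons, dentate granule neurons and T cells, Foxp2 in the striatum and thalamus, and Cux1 in many tissues.

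Total counts were 16993970 to 18713762 per library. Trem2 was at 0.90 to 19.6 TPM, a length-corrected level, in the 9 KO libraries, against 56.0 to 1338 TPM in the 9 WT libraries. The WT core library of replicate 3 stood apart. It held 14 counts of Slc17a7 (0.41 TPM), 4 of Tbr1, 3 of Fezf2 and 4 of Htr2a. The neuronal genes Snap25 (1.40 TPM) and Rbfox3 (0.79 TPM) were nearly missing from it, the excitatory gene Neurod6 was listed at 0, and 10 general neuronal markers summed to 74.3 CPM (counts scaled for library size), against 4065 to 9575 CPM in the other 17 libraries. The loss was not confined to neuronal genes: its astrocyte markers summed to 1058 CPM, against 7479 to 12801 CPM elsewhere. Its oligodendrocyte markers summed to 927 CPM, against 4543 to 11476 CPM. Its 8 microglial markers summed to 10886 CPM, against 520 to 3650 CPM elsewhere, and its fibroblast markers to 5041 CPM, against 92 to 3814 CPM. It entered the fit of all 18 libraries, whose shared spread it widens, and every comparison is given both from that fit and from the other 17 libraries, where the WT core has 2 libraries.

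Slc17a7, Tbr1 and Htr2a were the 3 members called lower in the KO core, relative to KO contralateral tissue, when WT core replicate 3 was left out, and are shown by the 250 bases of reference sequence before their transcription start. The sequences are RefSeq's for GRCm38.p6, read 5′ to 3′ on the plus strand: Slc17a7 at chr7:45163671-45163920, Tbr1 at chr2:61804203-61804452 and Htr2a at chr14:74640624-74640873. Capitals mark the E-box CANNTG, the motif read by neurogenic helix-loop-helix factors, searched on both strands (the pattern reads the same on both).
Slc17a7: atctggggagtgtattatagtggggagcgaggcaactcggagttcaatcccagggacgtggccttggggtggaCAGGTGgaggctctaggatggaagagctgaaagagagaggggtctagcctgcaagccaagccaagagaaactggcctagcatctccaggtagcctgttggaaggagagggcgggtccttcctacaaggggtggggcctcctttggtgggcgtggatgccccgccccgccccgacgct
Tbr1: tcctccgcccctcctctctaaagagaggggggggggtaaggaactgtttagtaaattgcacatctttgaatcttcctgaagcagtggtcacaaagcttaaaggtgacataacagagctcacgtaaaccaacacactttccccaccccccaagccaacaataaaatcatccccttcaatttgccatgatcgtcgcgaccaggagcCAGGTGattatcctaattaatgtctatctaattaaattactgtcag
Htr2a: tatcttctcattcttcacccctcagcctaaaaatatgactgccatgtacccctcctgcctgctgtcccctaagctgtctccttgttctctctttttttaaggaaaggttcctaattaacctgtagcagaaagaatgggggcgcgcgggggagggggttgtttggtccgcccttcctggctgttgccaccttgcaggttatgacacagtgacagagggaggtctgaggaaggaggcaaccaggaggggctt
The Slc17a7 and Tbr1 windows each held 1 E-box, both reading CAGGTG, and the Htr2a window held 0. Of 10 promoters matched to 8 members, 5 held at least 1 E-box, and 66.2% of all 32851 promoters in the RefSeq table did. A match describes the letters of the window and is not a measured binding site.

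**Figure D1:**
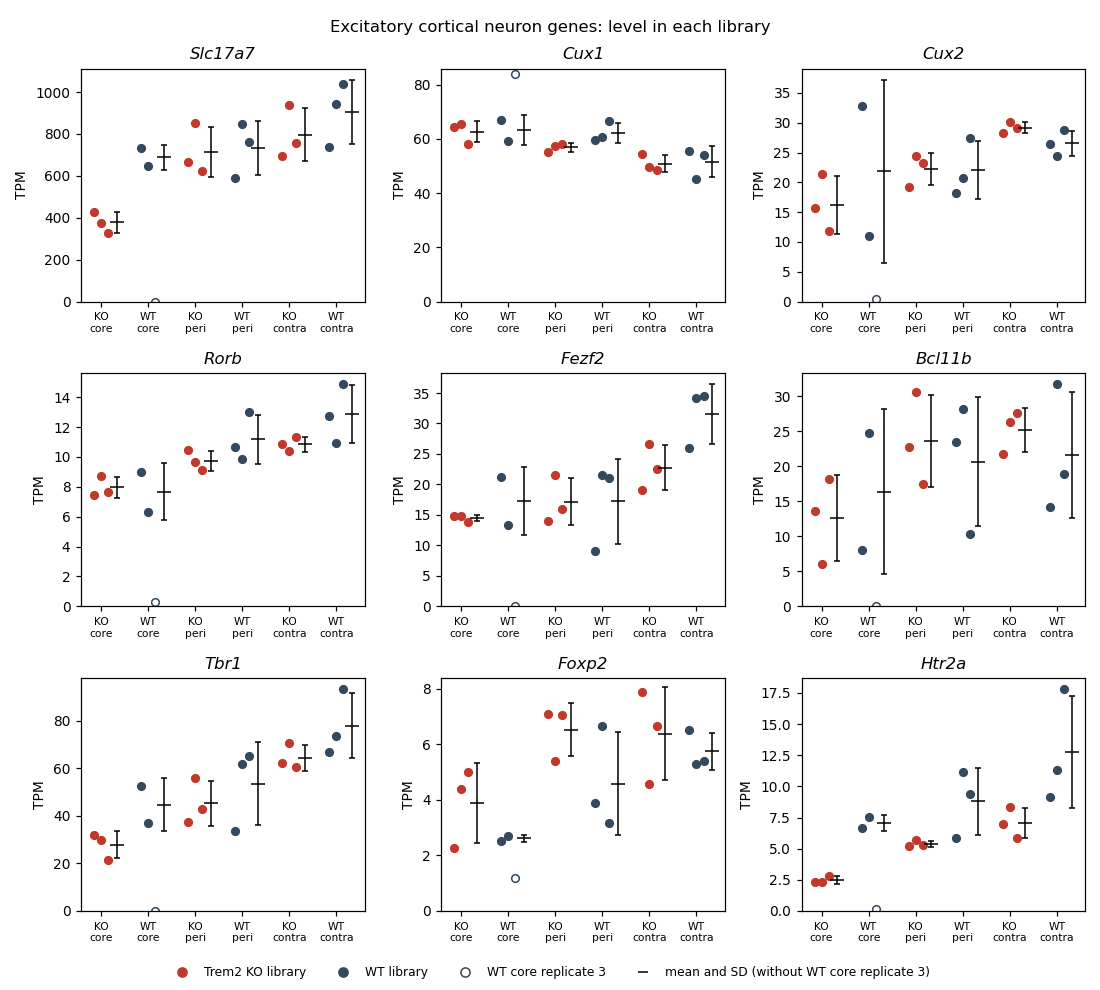
Level of each of the 9 genes in TPM (vertical axis, linear, starting at 0) in every library, by region and genotype. Filled points are libraries, the open point is WT core replicate 3, and the bar beside each group is its mean with its SD, without WT core replicate 3. The KO core points of Slc17a7 (329 to 429 TPM) lie below every other library except that open point.

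On the TPM scale, which corrects for gene length, Slc17a7 was the most abundant member in each group, at 378 ± 49.8 TPM in the KO core, 689 TPM in the WT core (n = 2, without replicate 3), 714 ± 121 TPM in the KO peri-infarct zone, 733 ± 130 TPM in the WT peri-infarct zone, 797 ± 126 TPM in KO contralateral tissue and 907 ± 152 TPM in WT contralateral tissue (SD, n = 3 unless given). It overlapped with no other member in any group once WT core replicate 3 was left out. Next came Tbr1 in both contralateral groups (64.3 ± 5.32 TPM in KO and 77.8 ± 13.8 TPM in WT), ahead of Cux1 (50.9 ± 3.07 and 51.6 ± 5.62 TPM) without overlap. In the core this order was the other way round: Cux1 was at 62.7 ± 3.97 TPM and Tbr1 at 27.8 ± 5.70 TPM in the KO core, again without overlap, and at 63.2 and 44.7 TPM in the WT core of 2 libraries. At the border the 2 genes overlapped in both genotypes. Cux2, Fezf2 and Bcl11b followed between 12.6 and 31.6 TPM as group means, and adjoining ranks among these 3 overlapped in every group, except that Cux2 lay above Bcl11b in KO contralateral tissue. Rorb, Htr2a and Foxp2 closed the order at 2.49 to 12.9 TPM.

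The KO core held less Slc17a7, Tbr1 and Htr2a than the KO contralateral side, and more Cux1. Slc17a7 was at 429, 375 and 329 TPM in the KO core, against 696, 939 and 756 TPM in KO contralateral tissue. All 3 core libraries lay below all 3 contralateral ones. In bulk tissue, fewer cells of a type and less RNA per cell cannot be told apart. With the 17 libraries the log2 fold change was -0.95 ± 0.18 (SE, n = 3 against 3), a level 0.518 times the contralateral one, with an adjusted p = 0.00032 in edgeR's quasi-likelihood test with Benjamini-Hochberg adjustment, which gives all adjusted p-values below. Tbr1 was at 32.1, 30.0 and 21.3 TPM in the KO core, against 62.0, 70.4 and 60.5 TPM in KO contralateral tissue. The groups did not overlap, and the log2 fold change was -1.10 ± 0.26 (adjusted p = 0.0025). Htr2a was at 2.36, 2.29 and 2.81 TPM in the KO core, against 6.99, 8.33 and 5.89 TPM in KO contralateral tissue. It had the largest fall of the 9 in this fit, at -1.38 ± 0.26 (adjusted p = 0.00034), and the groups lay far apart. Cux1 went the other way, with 64.4, 65.6 and 58.2 TPM in the KO core, against 54.4, 49.6 and 48.7 TPM in KO contralateral tissue. Its rise was small and without overlap, at 0.40 ± 0.10 (adjusted p = 0.0045).

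Counted over the 9, 3 fell and 1 rose, beside 57.4% of all tested genes called in this comparison (27.8% lower and 29.6% higher), so the share of members called is not above the background. The median log2 fold change of the members was -0.68, beside -0.02 over all genes. The 5 others were also on the negative side without passing the test: Bcl11b at -0.89 ± 0.47 (adjusted p = 0.12), Cux2 at -0.68 ± 0.32 (adjusted p = 0.087), Foxp2 at -0.59 ± 0.28 (adjusted p = 0.088), Fezf2 at -0.51 ± 0.28 (adjusted p = 0.13) and Rorb at -0.31 ± 0.15 (adjusted p = 0.090). For 7 members, all but Cux1 and Foxp2, each KO core library was below each KO contralateral one, a pattern seen in 31.5% of all genes in CPM, the scale of all such shares (33.6% had the opposite pattern, that of Cux1). The 4 calls held in each of 17 further fits that left out another library, with adjusted p-values of at most 0.0022 for Slc17a7, 0.0025 for Htr2a, 0.013 for Tbr1 and 0.037 for Cux1. With all 18 libraries the fold changes were nearly the same (-0.94 for Slc17a7, -1.09 for Tbr1, -1.38 for Htr2a and 0.40 for Cux1), but the SE of Slc17a7 was 1.08 and 0 members passed, beside 23.0% of all genes. A fit of the 6 KO core and contralateral libraries alone called 7 members, with Cux2, Fezf2 and Rorb added to the falls, beside 56.0% of its genes. DESeq2 with the 17 libraries called 5 members, with Cux2 added to the falls, beside 8898 of 18811 genes.

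**Figure D2:**
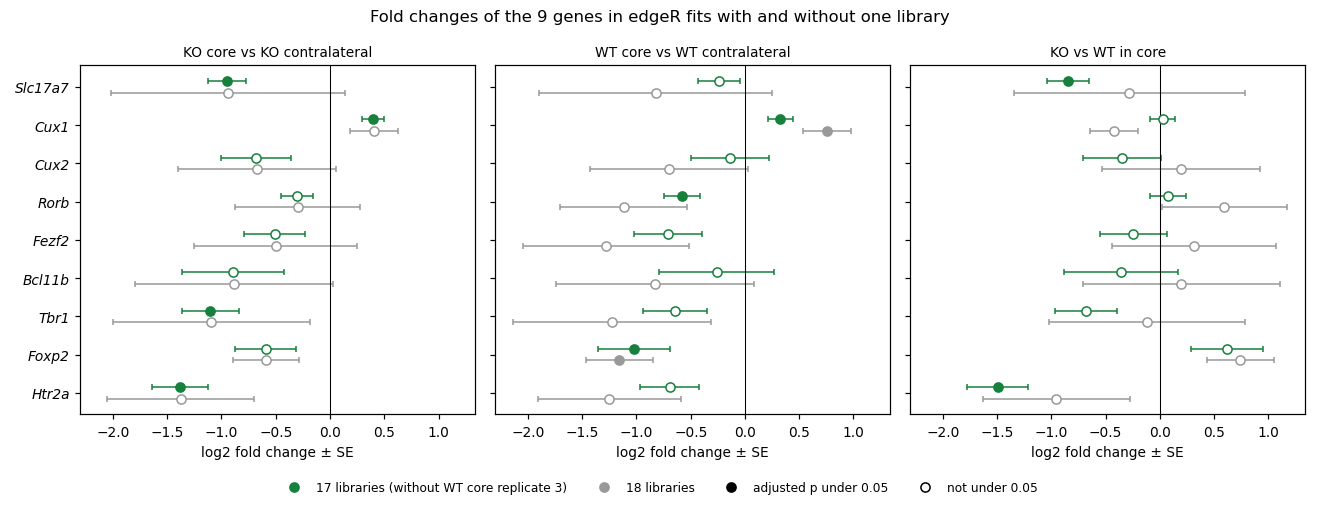
Log2 fold change with its SE (horizontal axis) of the 9 genes in 3 comparisons, from the fit of 17 libraries (green) and of 18 libraries (grey); filled points passed an adjusted p of 0.05. The points of KO core against KO contralateral tissue hardly move between the fits while their error bars shrink, and in the comparison of KO with WT core the points themselves move.

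In the WT core the pattern over the members was not the same set of calls. Slc17a7 was at 732, 646 and 0.41 TPM in the WT core, against 739, 945 and 1036 TPM in WT contralateral tissue. The first 2 core libraries lay just below the contralateral range in TPM and overlapped with it in CPM, and without replicate 3 the log2 fold change was -0.24 ± 0.20 (adjusted p = 0.35). Foxp2 was at 2.52, 2.71 and 1.19 TPM in the WT core, against 6.52, 5.29 and 5.41 TPM in WT contralateral tissue. It was lower without overlap, and it fell both with 18 libraries (-1.16 ± 0.31, adjusted p = 0.0098) and with 17 (-1.02 ± 0.33, adjusted p = 0.024). Rorb was at 9.01, 6.33 and 0.28 TPM in the WT core, against 12.8, 10.96 and 14.9 TPM in WT contralateral tissue. Its groups did not overlap either, and it fell with 17 libraries (-0.58 ± 0.17, adjusted p = 0.012) while the fit of 18 gave -1.12 ± 0.58 and no call.

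Cux1 was at 67.2, 59.3 and 84.0 TPM in the WT core, against 55.5, 45.2 and 54.2 TPM in WT contralateral tissue. The library with almost no Slc17a7 had the highest Cux1 of all, with 3619 counts. Cux1 rose with 18 libraries (0.76 ± 0.22, adjusted p = 0.016) and, by less, with 17 (0.33 ± 0.12, adjusted p = 0.035). In edgeR with 17 libraries and relative log expression (RLE) size factors in place of TMM it did not pass (0.30 ± 0.12, adjusted p = 0.055). The DESeq2 fit of the 17 libraries did call it. That fit also called Foxp2, Rorb, Fezf2, Htr2a and Tbr1 lower, beside 6509 of 18811 genes called. Total-count scaling in edgeR called Htr2a lower as well, beside 6161 of 15432 genes. In edgeR with TMM, 1 of the 9 rose and 1 fell with 18 libraries, beside 40.6% of genes called (29.1% higher and 11.5% lower). With 17 libraries 1 rose and 2 fell, beside 40.2% (23.6% higher and 16.6% lower), and the median over members was -0.58, beside -0.02 over all genes. Fezf2 (-0.71 ± 0.31, adjusted p = 0.087), Htr2a (-0.69 ± 0.27, adjusted p = 0.052) and Tbr1 (-0.65 ± 0.29, adjusted p = 0.094) did not pass in this edgeR fit, although their WT core libraries all lay below the contralateral ones, as did 27.7% of genes (32.5% lay above). These calls rest on few libraries: without WT core replicate 3 and 1 further library, Cux1 passed in 9 of 17 fits, Foxp2 in 14 and Rorb in 15, and Foxp2 was lost without WT contralateral replicate 1 or either remaining core library.

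At the border of the infarct 0 of the 9 members passed in either genotype in edgeR with TMM and no replicate block, with 18 or with 17 libraries. The background was 4.48% of genes with 18 libraries and 21.4% with 17 for the KO peri-infarct zone against KO contralateral tissue, and 3.27% and 19.5% for WT. In WT with 17 libraries, DESeq2 called Fezf2 lower (beside 3450 of 18811 genes) and total-count scaling called Cux1 higher (beside 2938 of 15432). Slc17a7 was at 668, 851 and 622 TPM in the KO peri-infarct zone, against 696, 939 and 756 TPM in KO contralateral tissue, and the groups overlapped (-0.20 ± 0.17, adjusted p = 0.44). In WT it was at 591, 846 and 762 TPM in the peri-infarct zone, against 739, 945 and 1036 TPM in contralateral tissue, again with overlap (-0.24 ± 0.17, adjusted p = 0.36). The member nearest to a call was Fezf2 in WT, with 9.15, 21.5 and 21.0 TPM in the peri-infarct zone, against 25.9, 34.2 and 34.5 TPM in contralateral tissue. All 3 border libraries were lower, as for 11.3% of genes, and the log2 fold change was -0.77 ± 0.28 (adjusted p = 0.067, 17 libraries). In KO tissue Cux2, Tbr1 and Htr2a were lower in each peri-infarct library than in each contralateral one, a pattern seen in 12.2% of genes, at -0.41 ± 0.32, -0.53 ± 0.26 and -0.43 ± 0.25, and a fit of only these 2 KO groups called Cux2, beside 20.5% of its genes. Cux1 was higher in each WT peri-infarct library than in each WT contralateral one, as were 22.3% of genes, at 0.28 ± 0.10 (adjusted p = 0.075). With the replicate number as a block, Cux1 passed there with 17 libraries (0.28 ± 0.08, adjusted p = 0.032) and not with 18 (adjusted p = 0.51). The response of the border in KO minus that in WT passed for 0 members (0% of genes with 18 and with 17 libraries).

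Set against the border, the KO core again had less Slc17a7 and Htr2a and more Cux1. With 17 libraries on the log2 scale Slc17a7 fell by 0.75 ± 0.17 (adjusted p = 0.0038), Htr2a by 0.95 ± 0.26 (adjusted p = 0.0098) and Cux1 rose by 0.30 ± 0.10 (adjusted p = 0.031), beside 40.1% of genes called (15.8% lower and 24.3% higher). A fit of only these 2 KO groups called both falls, beside 38.3% of its genes. Both falls held in 17 of 17 fits without a further library, and the rise of Cux1 in 10. With RLE size factors in place of TMM in edgeR, Cux1 did not pass (0.27 ± 0.11, adjusted p = 0.056), while the DESeq2 fit of the 17 libraries called it. Tbr1 (-0.57 ± 0.26, adjusted p = 0.097) and Foxp2 (-0.58 ± 0.28, adjusted p = 0.12) did not pass in edgeR with TMM, although their core libraries lay below all border libraries, as in 27.0% of genes (26.1% lay above, Cux1 among them in CPM but not in TPM). The DESeq2 fit of the 17 libraries called Tbr1 lower too (4 members called, beside 6352 of 18811 genes). With 18 libraries 0 members passed, beside 0% of all genes by edgeR and 2857 genes at an unadjusted p under 0.05. In WT the core and the border did not differ for any member past the test, beside 13.0% of genes with 18 libraries and 5.37% with 17, and Slc17a7 was at 0.00 ± 0.19 with 17. Rorb and Foxp2 were lower in each WT core library than in each WT border library, as were 15.7% of genes without replicate 3.

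Between genotypes, the differences past the test concerned Slc17a7 and the serotonin receptor Htr2a, and they passed only without WT core replicate 3. In the core, Htr2a was at 2.36, 2.29 and 2.81 TPM in KO, against 6.64, 7.53 and 0.12 TPM in WT. Without the last library every KO value was under every WT value, and Htr2a fell by 1.49 ± 0.28 on the log2 scale (adjusted p = 0.019, n = 3 against 2). Slc17a7 was at 429, 375 and 329 TPM in the KO core, against 732, 646 and 0.41 TPM in the WT core, and fell by 0.85 ± 0.19 (adjusted p = 0.034) without replicate 3. These were 2 of 9 members, beside 3.06% of genes called, 2.06% in the lower direction. Tbr1 was also lower in each KO core library than in both WT ones (-0.68 ± 0.29, adjusted p = 0.21), which with the 2 called genes makes 3 members, beside 18.6% of genes with such a pattern. With all 18 libraries 0 members passed, beside 0.0130% of genes (1822 genes had an unadjusted p under 0.05), and Slc17a7 was at -0.28 ± 1.07. The calls also depended on the WT core libraries that remained: without replicate 1 or replicate 2 of the WT core neither gene passed, without KO core replicate 2 neither passed, and without KO core replicate 3 Slc17a7 did not.

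Htr2a was below WT in the other regions too, without a call. It was at 5.19, 5.67 and 5.30 TPM in the KO peri-infarct zone, against 5.85, 11.2 and 9.38 TPM in the WT peri-infarct zone. In contralateral tissue it was at 6.99, 8.33 and 5.89 TPM in KO, against 9.12, 11.3 and 17.8 TPM in WT. Each KO library was below each WT library in both regions, and the log2 fold changes were -0.76 ± 0.24 (adjusted p = 0.22) at the border and -0.80 ± 0.24 (adjusted p = 0.36) on the contralateral side. Members called there numbered 0, beside 0.00652% of genes in each region with 18 libraries, and 0.117% at the border and 0.0389% on the contralateral side with 17. Such separation downward was seen in 9.27% of genes at the border, where Cux1 shared it, and in 10.5% on the contralateral side, where Fezf2 shared it on the CPM scale.

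The labels do not say whether libraries of different regions came from the same mice, and an average over regions treats them as independent. Averaged over the 3 regions, Htr2a fell by 1.02 ± 0.15 on the log2 scale (adjusted p = 0.0024) in KO relative to WT with 17 libraries, and this held in 17 of 17 fits without a further library. Slc17a7 fell by 0.36 ± 0.10 with an adjusted p = 0.0498, at the edge of the threshold, and passed in 5 of those 17 fits. These 2 of 9 members stand beside 7.46% of genes called (5.20% lower). With 18 libraries the averages were -0.84 ± 0.38 for Htr2a and -0.18 ± 0.62 for Slc17a7, and 0 members passed, beside 0.228% of genes. Whether the core response itself differed between genotypes was tested as an interaction: 0 members and 0% of genes passed in either fit, with Slc17a7 at -0.71 ± 0.26 (adjusted p = 0.44) and Htr2a at -0.69 ± 0.37 (adjusted p = 0.58) with 17 libraries. The falls of Slc17a7 and Htr2a in the KO core, and the missing calls for both in the WT core in edgeR with TMM, are therefore not shown to be a difference between the genotypes' responses. For Htr2a the missing call also depended on the fit. With the same 17 libraries, DESeq2 and total-count scaling called it lower in the WT core than in WT contralateral tissue. RLE size factors and the replicate block did not.

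**Figure D3:**
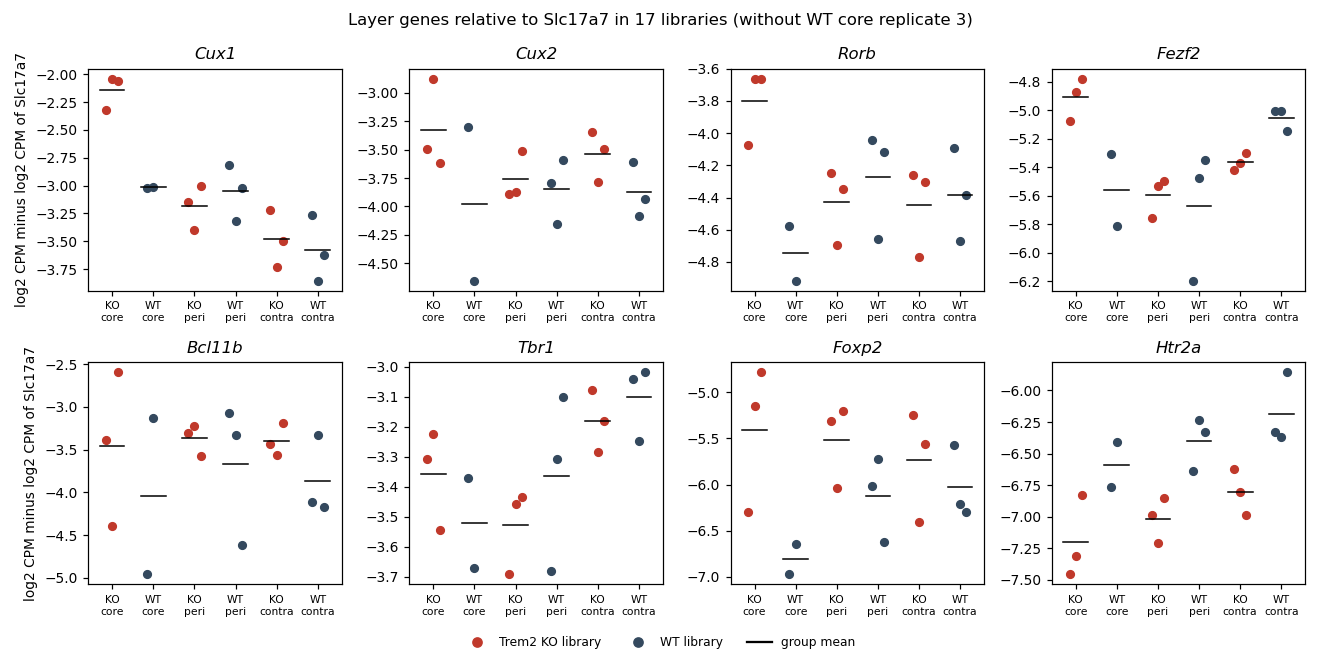
Log2 CPM of 8 layer genes minus log2 CPM of Slc17a7 in the same library (vertical axis, a different range in each panel) for 17 libraries, with each group's mean as a line. The KO core points of Cux1 (mean -2.14) lie above all other libraries, while those of Tbr1 (mean -3.36) lie within the range of the others.

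A layer gene that fell as much as Slc17a7 keeps its distance to it within a library. A gene that fell less moves up relative to Slc17a7, even where its own level is lower. On this scale, log2 CPM minus that of Slc17a7 in the 17 libraries, Tbr1 was at -3.36 ± 0.17 in the KO core, -3.53 ± 0.14 in the KO peri-infarct zone and -3.18 ± 0.10 in KO contralateral tissue (SD, n = 3 each). The KO core and contralateral libraries of Tbr1 overlapped. Rorb was at -3.80 ± 0.24 in the KO core, -4.43 ± 0.24 at the KO border and -4.44 ± 0.28 in KO contralateral tissue, and the core libraries lay above both other KO groups. Fezf2 was likewise at -4.91 ± 0.15 in the KO core, against -5.36 ± 0.06 in KO contralateral tissue. Cux1 moved most, at -2.14 ± 0.16 in the KO core, against -3.48 ± 0.25 in KO contralateral tissue.

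In WT the same measure ran differently for Rorb and Fezf2. Rorb was at -4.75 ± 0.24 in the WT core (n = 2), against -4.38 ± 0.29 in WT contralateral tissue, and Fezf2 at -5.56 ± 0.36, against -5.05 ± 0.08. Foxp2 was at -6.81 ± 0.23 in the WT core, against -6.03 ± 0.40 in WT contralateral tissue, while in KO it was at -5.41 ± 0.79 in the core and -5.74 ± 0.60 in contralateral tissue. Htr2a was below WT on this scale in each KO group, at -7.20 ± 0.33 in the KO core and -6.59 ± 0.25 in the WT core, at -7.01 ± 0.18 and -6.40 ± 0.21 at the KO and WT border, and at -6.80 ± 0.18 and -6.19 ± 0.29 on the KO and WT contralateral side. These ratios were not put to a test. They also move with Slc17a7 itself, at a mean of 514 CPM in the KO core and 985 CPM in KO contralateral tissue. In WT it was at 936 CPM in the core (n = 2) and 1103 CPM in contralateral tissue. Mean Rorb was at 36.6 CPM in the KO core and 35.2 CPM in the WT core (n = 2). The genotype contrast of Rorb and Fezf2 on this scale is therefore not shown to be a difference in these genes rather than in Slc17a7.

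**Figure D4:**
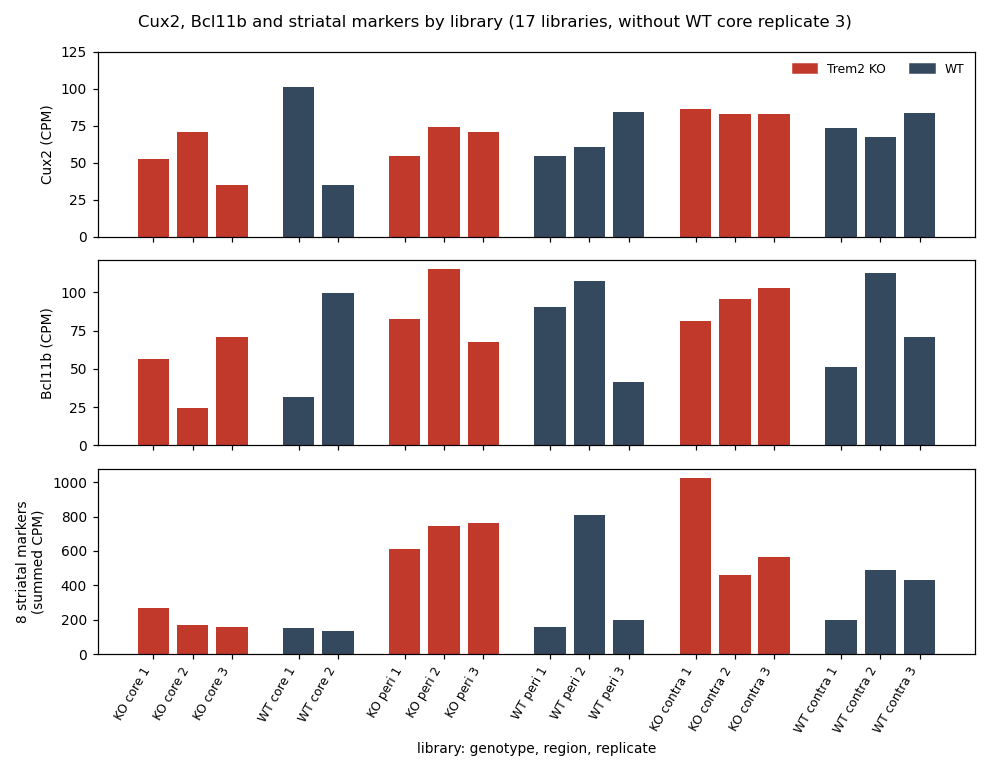
CPM of Cux2 (top) and Bcl11b (middle), and the summed CPM of 8 markers of striatal projection neurons (bottom), as bars from 0 for 17 libraries. In the core libraries Cux2 and Bcl11b run opposite to each other within both genotypes, and the striatal sum is 133 to 268 CPM in these 5.

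Libraries of the same group differed in Cux2 and Bcl11b. In the KO core, Cux2 was at 52.5, 70.8 and 34.7 CPM, and Bcl11b at 56.5, 24.7 and 70.6 CPM. The library highest in Cux2 was lowest in Bcl11b, and the reverse. In the WT core, Cux2 was at 101 and 34.8 CPM in replicates 1 and 2, and Bcl11b at 31.8 and 99.9 CPM. The log2 ratio of Cux2 to Bcl11b accordingly ranged from -1.02 to 1.52 in the KO core, from -1.52 to 1.66 in these 2 WT core libraries, from -0.64 to 0.06 at the KO border, from -0.82 to 1.03 at the WT border, from -0.30 to 0.09 in KO contralateral tissue and from -0.75 to 0.50 in WT contralateral tissue. This ratio was chosen after the values were seen and has no test. The lists of layer genes, members included, shared this contrast in part in the KO core and not in the WT core. The 10 upper-layer genes summed to 636, 627 and 509 CPM in the KO core and to 833 and 597 CPM in the 2 WT core libraries, and the 10 layer 5 genes to 304, 282 and 349 CPM in the KO core and to 318 and 283 CPM in the WT core. In the KO core, replicate 3 was thus lowest in the upper-layer sum and highest in the layer 5 sum. Replicate 2, highest in Cux2, was lowest in the layer 5 sum but not highest in the upper-layer sum. Both sums were higher in WT core replicate 1 than in replicate 2. The 10 layer 6 genes hardly varied, at 270, 270 and 260 CPM in the KO core and 280 and 271 CPM in the WT core. The SE of Bcl11b in the comparison of KO core with KO contralateral tissue (0.47) was wider than that of Slc17a7 (0.18).

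Markers of the other cells that use Bcl11b and Foxp2 were read in the same libraries. The 8 striatal markers summed to 160 to 268 CPM in the KO core, 609 to 761 CPM at the KO border and 463 to 1025 CPM in KO contralateral tissue. In WT they summed to 133 and 153 CPM in 2 core libraries, 160 to 809 CPM at the border and 200 to 489 CPM in contralateral tissue. With 17 libraries 7 of 8 were lower in the KO core than in KO contralateral tissue (median -2.03), and 2 of 8 in the WT core (median -1.69). The part of striatal RNA in the values of Bcl11b and Foxp2 was not tested. Prox1, a gene of dentate granule neurons and some interneurons, was at 17.5, 3.52 and 21.3 TPM in the KO core, in the order of Bcl11b, and at 3.74 and 30.0 TPM in WT core replicates 1 and 2. The 6 hippocampal markers, Prox1 among them, summed to 447, 400 and 442 CPM in the KO core and 558 to 633 CPM in KO contralateral tissue. In WT core replicates 1 and 2 they summed to 574 and 512 CPM, opposite in order to Prox1 and Bcl11b. Of these markers 1 fell in the KO core and 0 passed in the WT core, and their part in Bcl11b was not tested. Of 6 thalamic markers 1 rose in the KO core, and 1 rose and 1 fell in the WT core. T-cell markers summed to at most 12.6 CPM in any library, reached in KO contralateral replicate 1. In the 6 contralateral libraries, where Bcl11b was at 51.6 to 113 CPM, Cd3e was listed at 0 and Lck at 0.86 to 1.27 TPM. Cd3d and Cd3g were above 0 in some of them. Of 3 tested T-cell markers 1, Cd8a, rose in the KO core (2.69 ± 0.48), and 0 passed in the WT core. The part of T cells in Bcl11b was not tested.

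The falls in the core were shared by other neuronal genes. Of 10 general neuronal markers, 10 fell in the KO core relative to KO contralateral tissue (median -0.94) and 10 in the WT core (median -0.61), with 17 libraries. Snap25, a membrane protein of synaptic vesicle fusion, was at -1.11 ± 0.09 in KO. Of 8 pan-excitatory genes other than the members, 5 fell in the KO core (median -0.87) and 1 in the WT core (median -0.37), among them in KO the kinase Camk2a (-0.92 ± 0.15) and the vesicle protein Sv2b (-1.12 ± 0.21). Of 10 inhibitory interneuron markers 7 fell in both genotypes (medians -0.85 and -1.06), with the neuropeptide Sst at -1.75 ± 0.23 in KO.

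Other layer genes were counted in the KO core and in the WT core, each against its contralateral side, and 0 of them rose. Of all tested genes, 27.8% were called lower in KO and 16.6% in WT. Of 8 upper-layer genes 4 fell in KO and 1 in WT (medians -0.61 and -0.28), with the calcium buffer Calb1 at -0.75 ± 0.12 in KO. Of 3 genes of the granular layer 1 fell in KO, the Wnt modulator Rspo1 (-1.11 ± 0.36), and 0 in WT (medians -0.33 and -0.26). Of 7 genes of the layer below it 5 fell in KO and 6 in WT (medians -0.58 and -0.75). Pou3f1 was at -0.73 ± 0.18 and the mTOR inhibitor Deptor at -0.70 ± 0.18 in KO. Of 8 genes of the deepest layer 1 fell in KO, the synaptotagmin Syt6 (-1.20 ± 0.26), and 3 in WT. The medians of these 8 were -0.73 in KO and -0.51 in WT, so the few calls do not mean a smaller fall. Microglial and fibroblast markers moved the other way: 8 of 8 microglial markers rose in both cores (medians 2.09 and 1.94), and 8 of 8 fibroblast markers in the KO core and 7 in the WT core (medians 4.87 and 4.20). Summed over the 8, fibroblast markers were at 1957 to 3814 CPM in the KO core, against 92 to 124 CPM in KO contralateral tissue. Of 8 astrocyte markers 3 rose in the KO core and 2 in the WT core (medians 0.09 and 0.14), and of 8 oligodendrocyte markers 0 rose and 1 fell in each (medians -0.26 and -0.41). Of 6 choroid plexus markers 5 fell in the KO core and 0 in the WT core. These markers summed to 242, 3821 and 314 CPM in KO contralateral tissue, against 196 to 267 CPM in the KO core. Their KO contralateral level was thus set mainly by replicate 2. With all 18 libraries 0 of the 10 general neuronal markers passed in either core (medians -0.93 in KO and -1.18 in WT), and 8 of 8 microglial and 8 of 8 fibroblast markers rose in both. The part of these cells in the members' values was not tested.

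Genes with the most similar course over the 17 libraries were found by the root mean square difference of centred log2 CPM, over 13471 candidates. Nearest to Slc17a7 were Rtn4rl2 (0.10) and Shank2 (0.11), where the SD of Slc17a7 itself was 0.42. Nearest to Tbr1 were Vipr1 (0.12) and Cdk5r2 (0.14), with an SD of 0.54, and nearest to Htr2a were Hs3st2 (0.21) and Kcnh7 (0.29), with an SD of 0.75. Cux2 was closest to Dact2 (0.14) and Gucy1a1 (0.18), Rorb to Hlf (0.11) and Nudt4 (0.11), Fezf2 to Pde1a (0.17) and Satb1 (0.18), Bcl11b to Hpca (0.24) and Cacna1h (0.24), and Foxp2 to Reln (0.24) and Fgf11 (0.25). Nearest to Cux1 were Atg7 (0.08) and Tnfaip1 (0.09), with an SD of 0.20. With all 18 libraries, 5 of these 18 neighbours were named again.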

How the data were processed

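Polyadenylated RNA of 18 tissue libraries was sequenced, and the authors deposited 2 tables, one of estimated counts and one of TPM per gene. Per the submitters' processing notes, HISAT2 2.0.4, Bowtie2, Subread and the genome GRCm39 (mm39) were used. The role of each is not stated there. The expected counts deposited were not whole for 3678 genes (19.4%) and were rounded before testing. TPM values are the authors' own and were used for levels.

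Counts were tested with the quasi-likelihood test of edgeR 4.0.16 (R 4.3.3; TMM factors, the default expression filter, robust fits), with 1 mean per group and Benjamini-Hochberg adjustment over all tested genes at 0.05. Errors of fold changes are SEs derived from the test statistic. Each comparison was fitted with all 18 libraries (15329 genes) and without WT core replicate 3 (15432 genes). CPM and log2 CPM (prior count 2) use the same factors. DESeq2 1.42.0, limma 3.58.1 on log2(TPM + 1) and log2(TPM + 0.1), other scalings, fits of only the groups compared, a replicate block and fits without each library were the alternatives. The fits were also run on simulated counts, with a common mean per gene and known changes planted in the KO core. A library that stands apart, as WT core replicate 3 does, was not simulated. The 9 genes and the marker lists were chosen with earlier results of these data known. Beside the 9 and Trem2, genes named were the 2 nearest profiles of each member and, from marker lists, genes among the 3 with the smallest p in KO core against KO contralateral tissue without WT core replicate 3, or shown as defining markers of a cell type. Prox1 and the ratio of Cux2 to Bcl11b were chosen after their values were seen. Promoters were taken from a RefSeq table of GRCm38.p6, another build than the submitters name, matched by symbol and gene ID. Foxp2 was not matched.

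Replicate numbers were checked for pairing by the correlation of same-numbered libraries' deviations from their group means. All 3 numbers exceeded 0.1 in the comparison of WT peri-infarct with WT contralateral tissue only (0.398, 0.436 and 0.386), where the pairing thus comes from the values and not from the labels.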

Additional observations from a re-analysis of the deposited data

How the results depend on the processing

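Direction and call depended mainly on WT core replicate 3 and on which libraries shared the estimate of spread. With 18 libraries, leaving out 1 library at a time gave 0 to 4 members called for KO core against KO contralateral tissue, 0 to 3 for KO core against KO border, 1 to 4 for WT core against WT contralateral tissue, 0 to 2 for WT core against WT border, 0 to 2 for KO against WT in the core and 0 to 2 averaged over regions, and 0 to 0 in the 6 other comparisons. Of 15432 to 15468 genes tested, these fits called 2401 to 8854, 0 to 6190 and 4426 to 8337 in the first 3 of these comparisons. In the next 3 they called 0 to 5421, 2 to 472 and 13 to 1151 genes. Without WT core replicate 3, leaving out 1 more gave 4 to 6, 2 to 4, 1 to 6, 0 to 0, 0 to 2 and 1 to 3 in the same order, and 0 to 1 for WT border against WT contralateral tissue. Where a group keeps a single library, it is assumed to vary like the other groups. Fits of only the groups compared called 7 members for KO core and 1 (Cux2) for KO border against KO contralateral tissue, beside 56.0% and 20.5% of genes. They called 2 for KO core against KO border (38.3% of genes), and 0 for WT core against WT contralateral tissue. For the last comparison limma on TPM called 6 members with a pseudocount of 1 and 5 with 0.1, against 2 in edgeR with 18 libraries. DESeq2 called 6 with 17 libraries. All genes called there numbered 9330 of 15329 for limma with a pseudocount of 1, 6226 of 15329 for edgeR and 6509 of 18811 for DESeq2. DESeq2 called 1 member (Foxp2) for WT core against WT border with 18 libraries, beside 3489 of 18840 genes.

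For KO against WT in the core, Slc17a7 turned positive with limma on log2(TPM + 1) (2.11) and log2(TPM + 0.1) (2.59), as did its mean over regions (0.63 and 0.79), and Htr2a with the smaller pseudocount (0.20). These fits keep WT core replicate 3, where both genes are near 0. Slc17a7 was at 0.22 and 0.05 without WT core replicate 1 or 2, and its fits without 1 library ran from -0.85 to 0.22. With 17 libraries, total-count scaling, DESeq2 and the replicate block each called 1 member for WT border against WT contralateral tissue (Cux1, Fezf2 and Cux1), and total-count scaling and the block each called 1 averaged over regions (Htr2a). Over all genes they called 2938 of 15432, 3450 of 18811 and 3059 of 15432 at the border. Averaged over regions, total-count scaling and the block called 1316 and 1026 of 15432 genes. In edgeR with 17 libraries and RLE size factors, the rise of Cux1 no longer passed for WT core against WT contralateral tissue and for KO core against KO border. There 2 members were called in each, beside 6339 and 6196 of 15432 genes. The DESeq2 fit of the 17 libraries called it in both. The replicate block with 17 libraries also called Rorb lower in the KO core than in KO contralateral tissue (5 members called, beside 9020 of 15432 genes). It changed no member's call with 18 libraries, where 2 passed for WT core against WT contralateral tissue.

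Total-count scaling moved the median of all genes to -0.12 for WT core against WT contralateral tissue and to 0.15 for KO against WT core. In that WT comparison edgeR called 4456 genes higher and 1770 lower, and limma on log2(TPM + 1) called 3110 higher and 6220 lower. Htr2a, with the fewest reads of the 9, was at 3.36 ± 0.25 CPM in the KO core (SD, n = 3), a level at which counting error adds to its spread.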
